A study of Mus musculus with 4 samples.

Results

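The Id family of helix-loop-helix (HLH) inhibitors was followed in cultured mouse muscle stem cells (MuSCs) 1 h after addition of bone morphogenetic protein 6 (BMP6). Its members were taken by gene name as Id1, Id2, Id3 and Id4, and gave 4 of the 55267 entries of the deposited gene table. The MuSCs came from female C57BL/6N mice carrying the Tg(Pax7-EGFP)Tajb transgene, in which Pax7 regulatory sequences drive green fluorescent protein, at 9 weeks of age. Cells from limb, dorsal and breast muscle were cultured for 1 day, sorted by fluorescence, and grown for 2 further days at 3% oxygen. Both groups were then kept for 6 h without serum and with 200 ng/mL of BMPR-1A-Fc, a soluble receptor that captures BMPs, so the control was BMP-depleted rather than untreated. The BMP6 group received 100 ng/mL of BMP6 and the control group the vehicle (4 mM HCl, 0.1% BSA). There were 2 libraries of polyadenylated RNA per group, and libraries with the same replicate number shared a batch tag in the labels, where the tag names the biological replicate. How many animals stood behind each replicate was not given in the sources used here.

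ID proteins carry an HLH domain but no basic region. They pair with E proteins (TCF3, TCF4 and TCF12), and such pairs do not bind DNA, so E proteins are withheld from MYOD1 and other tissue-specific basic HLH (bHLH) factors. In myogenic cells, ID proteins are known as inhibitors of differentiation. Id1, Id2 and Id3 are well-known direct targets of BMP signaling, in which activated receptors phosphorylate SMAD1/5/9 and these enter the nucleus with SMAD4.

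The sequence upstream of the start of each Id gene is 1 of the places where SMADs could meet it. The first of these sequences are shown for Id1 and Id3, the members with the largest fold changes on the log2(TPM + 1) scale used for testing. The bases are from GRCm39 (the build of the files), and end at the base before the start of the most abundant transcript in the deposited annotation. The Id1 stretch is chr2:152577921-152578170 and the Id3 stretch is chr4:135870558-135870807, both on the plus strand, with matches to the SMAD box GTCTG or its complement CAGAC in capitals.
Id1: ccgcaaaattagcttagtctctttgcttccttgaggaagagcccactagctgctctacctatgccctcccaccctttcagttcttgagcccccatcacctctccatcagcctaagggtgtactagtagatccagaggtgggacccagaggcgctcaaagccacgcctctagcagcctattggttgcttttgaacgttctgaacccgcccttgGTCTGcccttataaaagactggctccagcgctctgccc
Id3: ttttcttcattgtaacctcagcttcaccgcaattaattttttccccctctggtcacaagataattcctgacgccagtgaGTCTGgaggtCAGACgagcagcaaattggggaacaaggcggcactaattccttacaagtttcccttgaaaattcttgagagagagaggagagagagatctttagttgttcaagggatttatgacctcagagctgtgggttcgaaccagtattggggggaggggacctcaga
Both strands of these 250 bases were searched for 7 motifs in every tested entry whose upstream window could be read, 13123 in all. The SMAD box had 1 match in Id1 and 2 in Id3, 171 and 161 bases before the start and on opposite strands, and 1 in Id2 but 0 in Id4. It was common, with a match in 40.4% of all windows. Of the other motifs, TATAAA matched in Id1, 29 bases before its start (8.27% of all windows), CGTCA in Id3 (25.0%), and the Sp/Klf box GGGCGG in Id1, Id2 and Id4 (52.8%). The E-box CANNTG had 2 matches in Id2 and 0 in the other members (57.8% of all windows).

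A composite BMP response element, GGCGNC, any 5 bases, then GTCT, was searched over 2000 bases upstream. Its GTCT end is also the start of the SMAD box, so the searches overlap. The composite was found in 98 of the 13123 windows (0.747%). Among the members it was found in Id1 alone, where it began 1045 bases before the start (chr2:152577126-152577140). The GGCGCC core on its own was found in 27.1% of these longer windows, and in Id1, Id2 and Id4 at 1099, 70 and 260 bases before the start. The newer GENCODE annotation starts the Id2 and Id4 transcripts further upstream. There, all 250 bases of the Id2 window, 146 of the Id4 and 6 of the Id1 window lie in an exon of the gene. The Id2 matches are thus upstream only of the start of its most abundant transcript in the deposited annotation. That annotation also holds a longer Id2 transcript, and the matches lie in its first intron. These stretches are shown because they are the closest matches to a BMP response element in the family, with the matched bases in capitals. Each is written in the direction of its gene.
Id1 composite, chr2:152577120-152577146: gggcctGGCGTCtaacgGTCTgagccg
Id1 core, chr2:152577062-152577087: ccgcccgcgcGGCGCCagcctgacag
Id2 core, chr12:25146307-25146332 (minus strand): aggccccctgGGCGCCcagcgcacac
Id4 core, chr13:48414434-48414459: cgggttgcccGGCGCCccgccctcgc
Id3 held neither the composite nor the GGCGCC core in its 2000 bases. Introns, downstream sequence and sites further upstream were not searched. The matches describe letters only, and SMAD binding was not measured in these libraries.

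Levels are given as TPM, transcript abundance per length scaled to the same sum in every library. For testing, the linear model of limma was fitted to log2(TPM + 1) of the 13128 entries with a mean of at least 1 TPM. The mean was taken over all 4 libraries, so an entry low in the controls could enter through its BMP6 values alone. A gene was called where its fold change (FC) was 2 or more, or 0.5 or less, with a Benjamini-Hochberg adjusted p over all entries tested below 0.1. Entries without a symbol, or whose name begins with Gm or Mir or ends in Rik, os or -ps with or without a number, stayed in the model but were not called, which left 10645 genes. This pattern was meant for provisional, antisense and pseudogene entries and also took some established genes, such as Gmppa and Fos, neither of which met the thresholds. Of these, 24 (0.225%) were called higher after BMP6. None was called lower by limma or by voom on reads rebuilt from coverage, and 1 gene had an unadjusted p under 0.05 with at least that fall. Id1, Id2 and Id3, 3 of the 4 members, were among the genes called higher.

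Id3, on chromosome 4 (135870808 to 135872703, plus strand), stood at 127 and 158 TPM in the controls and at 841 and 730 TPM after BMP6. Both BMP6 libraries lay far above both controls. The means were 143 TPM [SD 22.1] and 786 TPM [SD 78.2] (n = 2 each), and the ratios within replicate pairs were 6.62 and 4.61. The log2 FC was 2.46 (SE 0.13; 95% confidence interval 2.14 to 2.78; limma adjusted p = 0.0104). By unadjusted p, Id3 ranked 1 among the 10645 genes, and by log2 FC it ranked 2.

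Id1, on chromosome 2 (152578171 to 152579330, plus strand), stood at 90.5 and 129 TPM in the controls and at 584 and 513 TPM after BMP6. The groups again did not overlap. The means were 110 TPM [SD 27.2] and 548 TPM [SD 50.2] (n = 2 each), and the pairs gave ratios of 6.45 and 3.98. Its log2 FC was 2.33 (SE 0.17; 95% confidence interval 1.91 to 2.75; limma adjusted p = 0.0164), rank 3 by log2 FC.

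Id2, on chromosome 12 (25143798 to 25147139, minus strand), had the highest control level of the family, at 202 and 219 TPM. After BMP6 it stood at 569 and 447 TPM, above both controls. The means were 210 TPM [SD 12.1] and 508 TPM [SD 85.9] (n = 2 each), with pair ratios of 2.82 and 2.04. Its log2 FC of 1.26 (SE 0.13; 95% confidence interval 0.94 to 1.57; limma adjusted p = 0.0511) was rank 26, and the interval reaches below the FC threshold.

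Id4, on chromosome 13 (48414704 to 48419502, plus strand), was near the lower limit of the table, at 0.559 and 1.07 TPM in the controls and 3.79 and 5.06 TPM after BMP6. The groups did not overlap, but the values rest on few reads: coverage corresponded to about 137 and 253 reads of 100 bases in the controls and 913 and 1169 after BMP6, against at least 5646 for every other member in every library. The means were 0.814 TPM [SD 0.361] and 4.42 TPM [SD 0.899] (n = 2 each). The control mean lay under the 1 TPM limit, so Id4 entered the test only through its BMP6 values. The log2 FC was 1.58 (SE 0.21; 95% confidence interval 1.07 to 2.10; limma adjusted p = 0.107), so Id4 was not called. With the replicate number as a block it was called (adjusted p = 0.000331), where 0.338% of genes were called higher. The log2(TPM + 1) scale understates the change of such a low gene, and the ratio of the means was 5.43, against 5.51 for Id3, 5.00 for Id1 and 2.41 for Id2.

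In all 4 members both BMP6 values exceeded both control values, which 17.4% of the genes did.

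**Figure D1:**
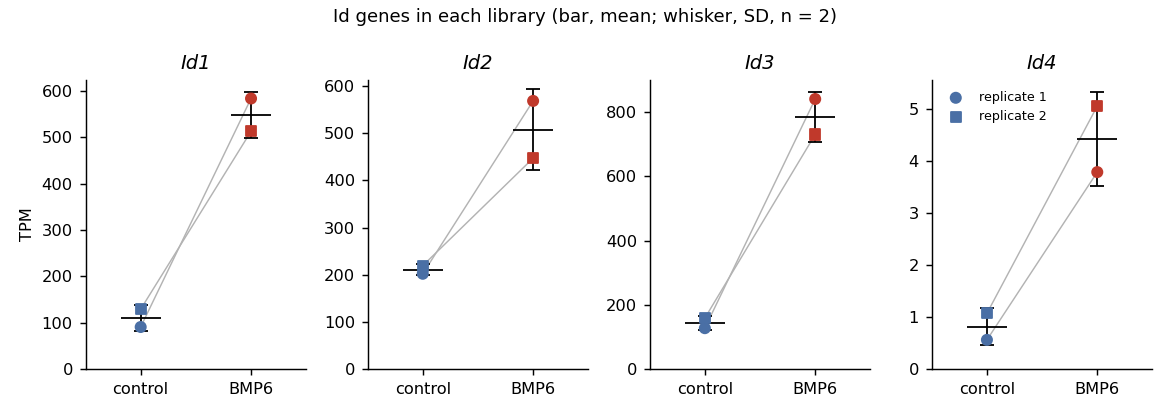
TPM (vertical axis, from 0, a separate scale in each panel) of Id1, Id2, Id3 and Id4 in the 2 control and 2 BMP6 libraries; gray lines join libraries of the same replicate number, horizontal bars are means and whiskers SD (n = 2). In each panel both BMP6 points lie above both control points; Id4 stays at or under 5.06 TPM while the others reach at least 447 TPM.

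**Figure D2:**
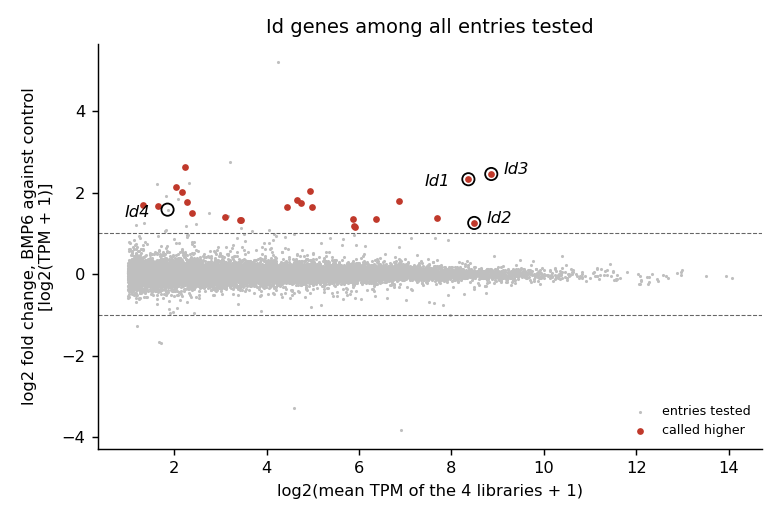
Log2 FC on the log2(TPM + 1) scale (vertical axis) against log2 of the mean TPM of the 4 libraries plus 1 (horizontal axis) for the 13128 entries tested, with the 24 called genes in red, the Id genes circled and the FC thresholds dashed. Id1, Id2 and Id3 lie at the right of the called genes, and Id4 lies at the left, at 1.58 and uncalled.

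The called Id genes had the highest mean TPM of all called genes after BMP6. Of the 24 called genes, Id3, Id1 and Id2 gained the most TPM, 643, 439 and 297 on the difference of means. The fourth was Junb, a subunit of the AP-1 transcription factor, with 185 TPM. In the controls Junb had a mean of 114 TPM, slightly above the 110 TPM of Id1. In the controls Id2, Id3 and Id1 already stood at ranks 793, 1173 and 1485 of the 10645 genes, where the median gene had 16 TPM. After BMP6 they stood at ranks 300, 152 and 276. Id4 moved from rank 10626 to rank 8294.

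The 4 members summed to 420 and 507 TPM in the controls and to 1997 and 1696 TPM after BMP6. The log2 ratio of the sum was 2.00, with 2.25 and 1.74 within the pairs (SD between replicates 0.18). An exact permutation test over 2 against 2 libraries cannot give a two-sided p below 0.333, which this sum reached, so it is given as a description. The composition of the sum changed with it. Id2 was the largest part in the controls, with 48.1% and 43.2%, and made up 28.5% and 26.4% after BMP6. Id3 went from 30.2% and 31.2% to 42.1% and 43.1%, and Id1 from 21.5% and 25.4% to 29.2% and 30.2%, while Id4 stayed at or under 0.298% in every library.

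The ratio between members showed the same picture within each library. The log2 ratio of Id2 to Id3 was 0.67 and 0.47 in the controls and -0.56 and -0.71 after BMP6, a difference of -1.21 (pairs -1.23 and -1.18; SD between replicates 0.12). The log2 ratio of Id1 to Id2 differed by 1.08 (pairs 1.20 and 0.96; SD 0.21). For Id1 to Id3 the difference was -0.13 (pairs -0.04 and -0.21; SD 0.10), and for Id4 to Id3 it was 0.03 (pairs 0.03 and 0.04; SD 0.44, mostly an offset between the replicate numbers). The first 3 of these gave an exact permutation p of 0.333, the smallest possible, and the last gave 0.667. Thus Id2 changed less than Id1 and Id3 in both pairs, and the ratio of Id4 to Id3 differed by 0.04 or less in either pair.

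**Figure D3:**
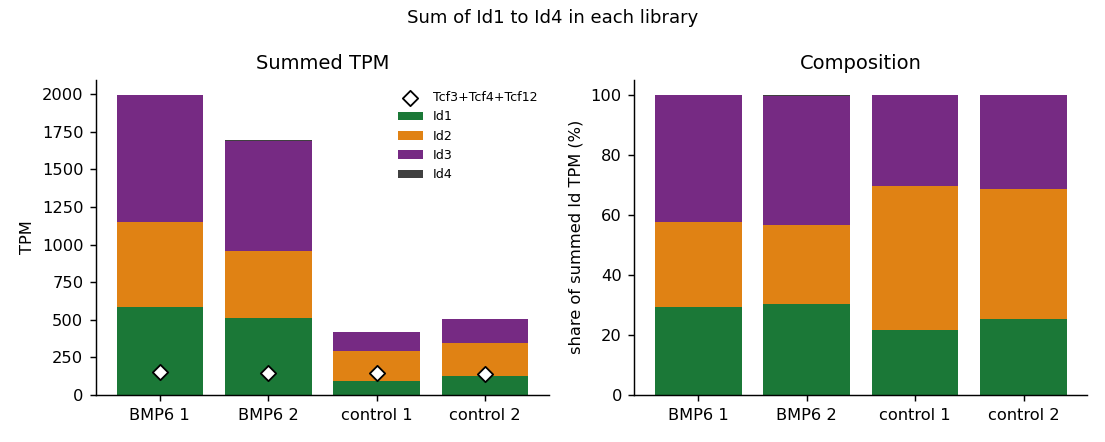
Left, TPM of Id1 to Id4 stacked for each library, with the sum of the E protein genes Tcf3, Tcf4 and Tcf12 as a diamond; right, each member's share of the Id sum in percent. The Id sum is 420 and 507 TPM in the controls and 1997 and 1696 TPM after BMP6, the diamonds stay between 140 and 151 TPM, and the Id2 share is smaller in both BMP6 libraries.

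The depth of single exons, scaled to the TPM of the library, was compared next, since a change carried by 1 exon could come from another transcript. The exons of Id3 had log2 ratios of 2.47, 2.50 and 2.46 from the 5′ to the 3′ end. Both Id1 exons were close to each other as well, with 2.33 and 2.35, and the 3 exons of the main Id2 transcript gave 1.10, 1.11 and 1.20. The Id4 exons gave 2.21, 2.64 and 2.57 with no value added before the log. In Id1, Id2 and Id3 depth was lower in the first exon than in the last in all 4 libraries, and in Id4 in 3 of 4 (for Id3 after BMP6, 457 and 388 against 1305 and 1142).

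Id1 was split in the files between a spliced transcript and one that keeps its single intron. The spliced form made up 81.9% and 83.6% of the Id1 TPM after BMP6 and 80.4% and 79.8% in the controls, so the split differed by a few percentage points. The unspliced form stood at 17.7 and 26.0 TPM in the controls and at 105 and 83.9 TPM after BMP6.

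Id2 was split between 3 transcripts, and here the split was unstable. The main transcript, with 3 exons, made up 96.5% and 70.0% after BMP6 and 69.2% and 45.9% in the controls. A transcript with 4 exons took 0.0009% and 26.8% after BMP6 and 25.7% and 48.3% in the controls. Its own first exon (chromosome 12, 25146604 to 25147139) had a scaled depth of 0.0066 and 0.0059 after BMP6 and 0.245 and 0 in the controls, against at least 169 for the exons of the main transcript. Depth over that exon thus gave the 4-exon transcript almost no support of its own, and its TPM and shares are uncertain. A single-exon transcript that runs through the first intron of the main transcript and ends inside the second stood at 10.4 and 12.7 TPM in the controls and at 19.6 and 14.2 TPM after BMP6. With the aligned bases of Id2 divided by 1 fixed length instead, whichever transcript they were given to, the levels were 219 and 256 in the controls and 564 and 489 after BMP6. The log2 FC was then 1.15 (pairs 1.36 and 0.93; adjusted p = 0.0511), so Id2 was called on either measure.

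Tested as transcripts, none of the 7 transcripts of the members was called by limma (adjusted p from 0.114 for Id3 to 1). Over all 19346 transcripts tested, 6 (0.031%) were called higher.

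**Figure D4:**
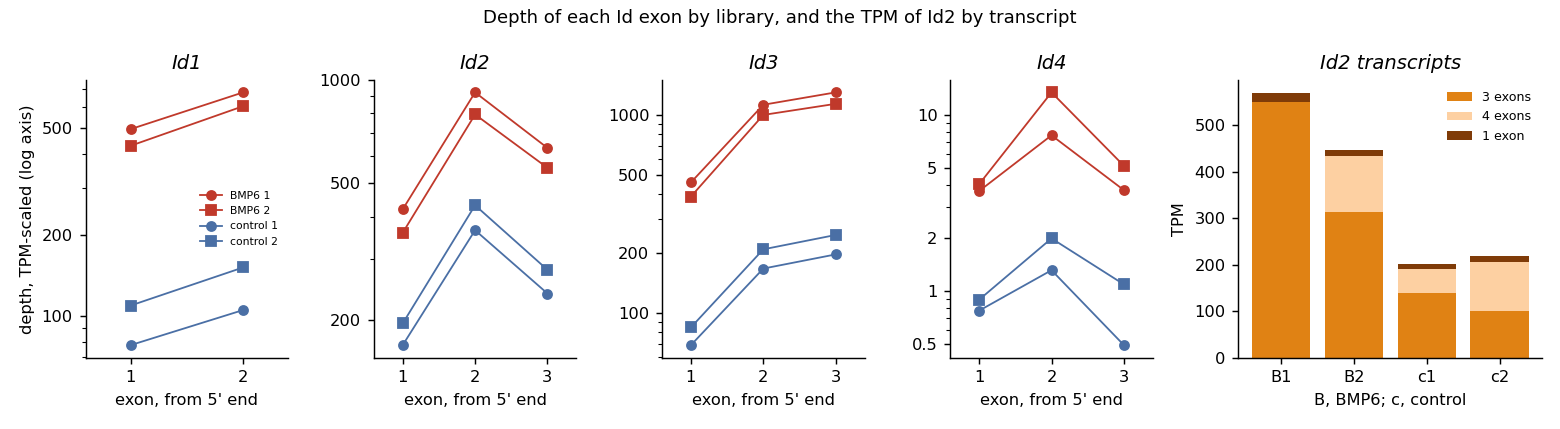
Left 4 panels, depth of each exon of the main transcript of each Id gene (log axis, scaled to the library's TPM) by exon number from the 5′ end, for the 2 BMP6 (red) and 2 control (blue) libraries; right panel, TPM of Id2 stacked by transcript. The red and blue lines run nearly parallel in Id1, Id2 and Id3 and less so in Id4. The part of Id2 given to the 4-exon transcript ranges from 0.0054 to 120 TPM between the BMP6 libraries.

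The partners of ID proteins were then examined by lists. The E protein genes did not pass the test, 0 of 3 at an adjusted p under 0.1 (0 at an unadjusted p under 0.05, and 0 by voom), where 0.263% of all genes passed higher and 0.00939% lower. Tcf3 stood at 42.5 and 40.2 TPM in the controls and 41.1 and 37.1 TPM after BMP6 (log2 FC -0.08; 95% confidence interval -0.34 to 0.18). Tcf4 stood at 67.4 and 64.4 against 70.5 and 63.1 TPM (0.02; -0.23 to 0.26), and Tcf12 at 35.7 and 35.0 against 39.0 and 43.2 TPM (0.21; -0.04 to 0.46). The summed E protein genes ranged from 140 to 151 TPM over the 4 libraries. Summed Id transcripts per summed E protein transcript therefore went from 2.88 and 3.63 in the controls to 13.3 and 11.8 after BMP6. This log2 ratio differed by 1.95 (pairs 2.2 and 1.70; SD between replicates 0.19; exact permutation p = 0.333, the smallest possible). It compares transcripts, and protein levels were not measured.

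Of the myogenic bHLH factors, which need E proteins to bind DNA, 0 of 4 passed (0 at an unadjusted p under 0.05, and 0 by voom). Each 95% confidence interval spanned 0. Myod1, the determination factor, stood at 536 and 614 TPM in the controls and 631 and 622 TPM after BMP6 (log2 FC 0.13; 95% confidence interval -0.09 to 0.35). Myf5 stood at 171 and 121 against 162 and 111 TPM (-0.10; -0.65 to 0.46), and Myf6 at 42.0 and 44.2 against 39.8 and 40.1 TPM (-0.11; -0.34 to 0.13). Myog, which drives terminal differentiation, was the most abundant, at 4452 and 5472 against 4400 and 5001 TPM (-0.07; -0.37 to 0.22). The cells thus carried high Myog transcript in both groups.

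Among 9 E-box targets of MYOD1, 0 passed (1 at an unadjusted p under 0.05, and 0 by voom), with a median log2 FC of -0.07 against 0.02 over all genes. Of the 9, 7 had a negative log2 FC, a share not compared with that over all genes. Myog is 1 of the 9 and was also counted among the myogenic factors. With the replicate block 2 of the 9 passed as lower, Des, the muscle intermediate filament (log2 FC -0.24, adjusted p = 0.0312), and Actc1, cardiac actin (-0.20, adjusted p = 0.032), where 0.319% of all genes did so. Neither reached the FC threshold.

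Of 15 other bHLH genes, 9 were tested and 2 passed, both higher. Atoh8 rose from 9.68 and 12.4 TPM to 49.9 and 46.3 TPM (log2 FC 2.04, SE 0.14, limma adjusted p = 0.0132). Hey1, a transcriptional repressor in the Notch pathway, rose from 36.7 and 28.1 to 85.3 and 81.3 TPM (1.35, SE 0.14, limma adjusted p = 0.0523). The median of the 9 was 0.44. With the block 5 passed as higher, where 1.32% of all genes did, the others being Hes6 (0.45), Bhlhe40 (0.44) and Bhlhe41 (0.72), and 1 as lower, Msc (-0.53; adjusted p = 0.0117).

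Of 5 genes for turnover of ID proteins, Usp1, Wdr48, Fzr1, Cops5 and Smurf2, 0 passed (0 at an unadjusted p under 0.05, and 0 by voom), with log2 FCs from -0.18 for Fzr1 to 0.27 for Smurf2. USP1 removes ubiquitin from ID proteins, with WDR48 as its cofactor. Usp1 stood at 32.9 and 39.6 TPM in the controls and 37.0 and 34.7 TPM after BMP6.

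The genes on the list of BMP receptors were transcribed at low to moderate levels, and 0 of 7 passed (0 at an unadjusted p under 0.05, and 0 by voom). Which of them BMP6 used was not tested. Bmpr1a, a type I receptor, was the highest, at 14.1 and 15.4 TPM in the controls and 15.5 and 21.3 TPM after BMP6 (log2 FC 0.29; 95% confidence interval -0.13 to 0.71). The type I receptor Acvr1 stood at 4.61 and 5.60 against 4.91 and 7.55 TPM, while Bmpr1b had group means of 1.42 and 1.05 TPM and Acvrl1 of 0.931 and 1.12 TPM. The type II receptors Bmpr2, Acvr2a and Acvr2b had control means of 1.85, 8.53 and 2.10 TPM and BMP6 means of 2.30, 9.17 and 2.06 TPM.

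Of the SMADs that carry the signal, 0 of 3 tested passed (0 at an unadjusted p under 0.05, and 0 by voom). Smad1 stood at 38.1 and 40.4 TPM in the controls and at 38.9 and 57.9 TPM after BMP6 (log2 FC 0.27; 95% confidence interval -0.19 to 0.73), so 1 library accounts for its higher mean. Smad5 had means of 7.99 and 8.91 TPM, and Smad4, the common partner, of 5.21 and 5.63 TPM. Smad9 was under the limit for testing, with 0.126 and 0.275 TPM.

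Of 9 other BMP targets, 8 were tested and 4 passed and were called, all higher: Atoh8, Smad7, Skil and Hey1. Atoh8 and Hey1 are on this list and on that of other bHLH genes, so they are counted in both. Smad7, an inhibitor of receptor signaling, rose from 0.633 and 0.926 TPM to 5.12 and 7.36 TPM (log2 FC 2.01, SE 0.20, limma adjusted p = 0.0511). Skil, a corepressor of SMADs, rose from 10.0 and 12.7 TPM to 36.2 and 44.5 TPM (1.74, SE 0.16, limma adjusted p = 0.0418). Smad6, the other inhibitory SMAD, stood at 0.621 and 0.673 against 4.13 and 10.6 TPM (2.23; adjusted p = 0.27), and Msx1 had a log2 FC of 1.05 (adjusted p = 0.178). With the block both Smad6 (adjusted p = 0.00169) and Msx1 (0.00494) were called as well. Smad7 and Smad6, with control means of 0.78 and 0.647 TPM, entered the test only through their BMP6 values. Ski (0.51) and Bambi (-0.06) did not pass, and Msx2 was at or under 0.158 TPM in every library. The median of the 8 was 1.55 on the log2(TPM + 1) scale, with Id1 and Id3 above it and Id2 below it. Id4, which was not called, lay just above it at 1.58.

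The other regulators of Id genes, Egr1 and Atf3, did not pass (0 of 2; 0 at an unadjusted p under 0.05, and 0 by voom). Egr1 stood at 75.6 and 66.0 TPM in the controls and 66.5 and 58.4 TPM after BMP6, and Atf3 at 6.42 and 3.21 against 5.80 and 2.71 TPM.

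**Figure D5:**
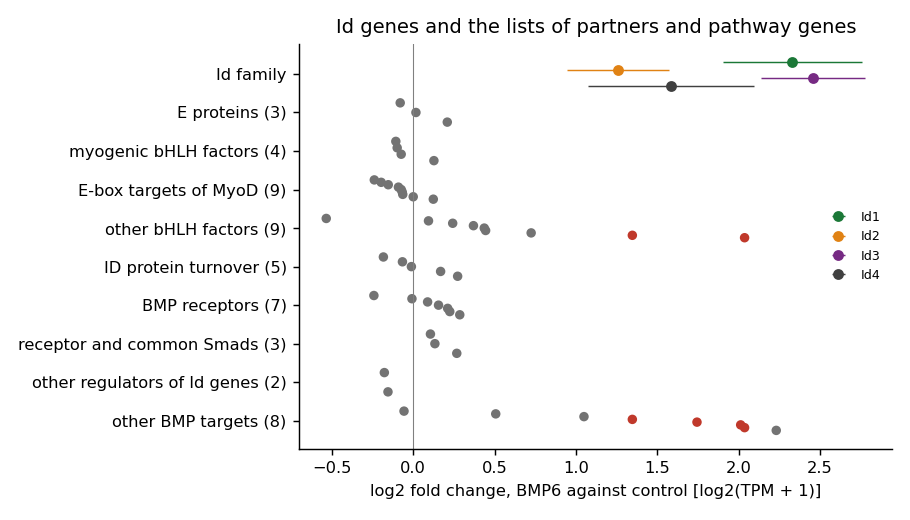
Log2 FC on the log2(TPM + 1) scale (horizontal axis) of the 4 Id genes, with 95% confidence intervals, and of the tested genes of 9 lists (number tested in brackets), with called genes in red. The lists of E proteins, myogenic bHLH factors, turnover genes, receptors and signal-carrying SMADs lie between -0.24 and 0.29. Red points are found among the other BMP targets and other bHLH factors, where Atoh8 and Hey1 appear on both lists.

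For each member, the 3 tested entries with the most similar profile were found, by the Euclidean distance between centered log2(TPM + 1) values over the 4 libraries. The nearest to Id1 among the other 13127 entries was Id3, and the nearest to Id3 was Id1 (distance 0.19), followed for both by Atoh8 and Dlx2, a homeobox gene. The nearest to Id2 were Nfkbia, the inhibitor of NF-κB (0.09; log2 FC 1.18), Snai1, a transcriptional repressor (0.11; 1.37), and Gm5763 (0.15; 1.18). Id2 and Id3 lay 1.21 apart. The nearest to Id4 were Cldn9 (0.09; 1.67), Arc (0.09; 1.51) and Skil (0.18; 1.74). With 4 libraries such distances mostly follow the size of the change.

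The genes beside the members had log2 FCs near 0, with 1 exception. The nearest tested entries to Id1 were H13 at 27580 bases (log2 FC -0.02) and Cox4i2 at 16762 bases (-0.16). Those to Id2 were Kidins220 (-0.03) and an unnamed entry 90361 bases away (0.07). E2f2, on one side of Id3, had a log2 FC of 0.15, and those of Id4 were Dek (0.06) and A830005F24Rik (-0.19). The exception was the unnamed entry ENSMUSG00000121154 on the minus strand of chromosome 4 (135869015 to 135869528), which lies 1279 bases upstream of Id3 and runs away from it. It stood at 1.66 and 3.55 TPM in the controls and 8.56 and 9.17 TPM after BMP6 (log2 FC 1.501, SE 0.26, limma adjusted p = 0.316; 0.002 with the block). The libraries did not keep strand, so reads from the opposite strand over a gene could not be told apart from its own. Both antisense entries that overlap Id4 were at or under 0.135 TPM, and 0 entries of the files were named as pseudogenes of a member. By sequence, the members shared at most 80.9% identity over 141 bases with each other. Identical stretches came from genes that overlap a member on the opposite strand in the newer annotation, namely Gm75058 (245 bases of Id1), Gm59395 and Gm36287 (796 and 466 bases of Id2), Gm57159 (164 bases of Id3) and Gm49291 (110 bases of Id4). The one processed pseudogene found, Gm6175 (91.6% over 380 bases of Id2), was listed at 0 in every library.

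Over the 4 libraries, depth rebuilt from coverage ran from 108100000 to 112000000 reads of 100 bases. Of 5 markers of MuSCs, all were detected, and summed to between 1770 and 2143 TPM. Most of this sum was Des (807 to 1120 TPM) and Myod1 (536 to 631 TPM), while Pax7 lay between 8.29 and 11.7 TPM. Des and Cdh15, another of these markers, were also on the list of E-box targets of MYOD1, so the sum is not particular to stem cells. Endothelial cells, which express Id1 and Id3 strongly, were checked by Pecam1, Cdh5 and Emcn, summed to at most 0.298 TPM in any library. The immune and Schwann cell markers summed to at most 1.80 and 0.601 TPM, and Ptprc was at 0 in 3 libraries. Pericyte or smooth muscle markers summed to between 7.02 and 9.44 TPM, and fibroblast markers to between 35.3 and 64.6 TPM, nearly all of it Col1a1; these were higher in replicate 1 of both groups. In bulk RNA, fewer responding cells and a smaller response per cell cannot be told apart.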

How the data were processed

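RNA of 2 BMP6 and 2 control cultures was sequenced as unstranded, paired 100-base reads from Smart-seq2 cDNA without molecular identifiers. Per the labels and methods, the authors aligned reads to GRCm39 (GENCODE annotation) with STAR 2.7.11a, sorted them with SAMtools 1.17, and quantified merged transcripts with StringTie 2.2.1. The deposited gene tables hold TPM, which sums to 1000000 in each library, and FPKM. The deposited transcript files hold TPM and coverage, an unscaled depth signal. Deposited read counts were not used here, so no count model was fitted. Reads were rebuilt only as coverage times length over 100 bases, and each library had 108100000 to 112000000. Being amplified without molecular identifiers, they are not independent molecules.

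Entries with a mean of at least 1 TPM over the 4 libraries (13128) were fitted with limma 3.58.1 (lmFit, eBayes with trend) in R 4.3.3 on log2(TPM + 1), without a block, since the study's methods name no pairing term for its DESeq2 test. The study's heatmaps of regulated genes did use a paired design. Of the 13128 entries, 2483 were left out of calls by name. P-values rest on the spread between 2 libraries per group, which eBayes moderates toward a trend with level over all entries tested. The labels tag same-numbered libraries as 1 batch, so the replicate block was an alternative; around the group means, libraries sharing a number deviated together (r = 0.563 across entries). The other alternatives were pseudocounts of 0.1 and 5, no filter or 5 TPM, no trend, quantile normalization, FPKM, voom on rebuilt reads, an adjusted p under 0.05 and leaving out each library. The script was tested on simulated data.

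The members, lists and tests were chosen with earlier results of these data known. Genes were named by rule: members and their transcripts, listed genes past the adjusted p, every E protein, myogenic factor, receptor and Smad, the 3 nearest profiles, and overlapping or neighboring entries; other genes named were chosen after their values were seen. Transcripts were compared with the GENCODE reference by BLAST+ 2.17.0. Upstream windows of 250 and 2000 bases were read from GRCm39. Columns of no measured sample numbered 0.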

Additional observations from a re-analysis of the deposited data

Results flagged for a closer look

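ENSMUSG00000121154, an unnamed minus-strand entry that lies 1279 bases upstream of Id3, was left out of the calls because it has no gene symbol, and its signal after BMP6 exceeded that in the controls. Its log2 fold change was 1.501 (1.84 and 1.16 within the replicate pairs), with 8.56 and 9.17 TPM after BMP6 against 1.66 and 3.55 TPM in the controls. It did not pass the adjusted p (0.316 by limma) and did with the replicate block (0.002). The newer GENCODE annotation extends this gene over the start of Id3, and the share of Id3 reads in it was not tested.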

How the results depend on the processing

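The direction of every Id gene was kept under all alternatives run. The count of genes called higher, 24, was 15 both with a pseudocount of 5 and with the filter at 5 TPM, 12 without the trend, 11 at an adjusted p under 0.05, 1 with no filter on low values and 56 for voom on rebuilt reads with the replicate block; it was 36 with the replicate block alone. The count called lower, 0, was 1 with the replicate block and 6 for voom with it, and ranged from 1 to 7 when 1 library was left out, where the lone library of a group is assumed to vary like the other group. With no filter on low values Id1 (log2 fold change 2.33, adjusted p = 0.888), Id2 (1.26, adjusted p = 1) and Id3 (2.46, adjusted p = 0.454) lost their calls; the cause was not tested. Id2 also lost its call without the trend (1.26, adjusted p = 0.164) and at an adjusted p under 0.05 (1.26). Id4 (1.58) gained a call with the replicate block (1.58, adjusted p = 0.000331), quantile normalization (1.55, adjusted p = 0.0985), FPKM (1.19, adjusted p = 0.097) and voom with the block (2.45, adjusted p = 0.000149). It ranged from 1.38 to 1.79 when 1 library was left out, and was called without BMP6 replicate 1 (1.75) and without control replicate 2 (1.79). Its log2 fold change was 2.35 with a pseudocount of 0.1 and 0.69 with one of 5, uncalled in both. The Id transcript count was 0 under each alternative run on transcripts, which did not include quantile normalization or voom. The block changed no other call of an Id gene. Aligned bases over a fixed length, an alternative chosen after seeing the data, changed no call of Id1 or Id2. Depth limits Id4, with about 137 rebuilt reads in its shallowest library.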
